A study of Rattus norvegicus with 12 samples.

Results

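Interferon-induced genes in rat colonic epithelium were Oas1a, Oas1k, Ifi27l2b, Isg15, Isg20, Mx1, Irf7, Ifit3 and Ifit2. They were selected on earlier results of the same arrays, in which diet differences in log2 intensity had been seen, and their gene spots were found by the gene name in the scanner files. All 9 had a probe on the array. Of these, 8 passed the filter on dim probes and were among the 10451 genes tested, and Ifit3 did not pass. The high protein group held 6 samples labelled colonic epithelium from male Wistar rats fed a high-protein diet for 6 weeks, and the normal protein group held 6 such samples from rats fed a normal-protein diet for the same time. The rats weighed 180 to 200 g. The series asked how transcripts in the colon respond when the protein content of the food goes up. Nothing in the labels says that replicates were separate animals, so p-values measure the spread between these samples, which may be technical.

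Interferons are secreted proteins that cells release after sensing viral nucleic acid. Type I and type III interferons bind their receptors, activate JAK kinases, and bring a complex of STAT proteins and IRF9 to a GAAA-rich DNA element in front of antiviral genes. In the gut lining, type III interferon acts mainly on epithelial cells, and a low level of the antiviral genes is kept on without infection. Among the 9 genes, Irf7 is the transcription factor that amplifies interferon production. Oas1a and Oas1k belong to the oligoadenylate synthetase family, whose active members sense double-stranded RNA and switch on RNase L. Mx1 is a GTPase that blocks viral replication, and Isg20 is a 3′ to 5′ exonuclease. Ifit2 and Ifit3 are tetratricopeptide-repeat proteins that act on viral RNA and its translation. Isg15 is a ubiquitin-like protein that is conjugated to other proteins, and Ifi27l2b belongs to the Ifi27 family of small interferon-inducible proteins.

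The promoters are shown because the GAAA-rich element is the textbook site through which interferon acts. RefSeq promoters of the GRCr8 build were at hand for Oas1a, Isg20, Mx1, Irf7 and Ifit3, 5 of the 9 genes. The 100 bases before each start are printed 5′ to 3′ on the strand of the gene, and capitals mark matches on either strand to GAAA followed by any 2 bases and GAAA again. The stretches lie at chr12:41330366-41330465 (plus strand) for Oas1a, chr1:142239959-142240058 (plus strand) for Isg20, chr1:205800024-205800123 (minus strand) for Irf7, chr1:241527226-241527325 (plus strand) for Ifit3 and chr11:50294607-50294706 (minus strand) for Mx1.
Oas1a: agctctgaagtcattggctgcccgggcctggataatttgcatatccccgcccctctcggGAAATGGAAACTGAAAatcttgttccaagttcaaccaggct
Isg20: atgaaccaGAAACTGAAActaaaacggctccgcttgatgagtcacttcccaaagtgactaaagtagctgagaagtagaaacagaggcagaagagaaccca
Irf7: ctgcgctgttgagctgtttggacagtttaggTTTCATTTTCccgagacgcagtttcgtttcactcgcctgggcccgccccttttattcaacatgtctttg
Ifit3: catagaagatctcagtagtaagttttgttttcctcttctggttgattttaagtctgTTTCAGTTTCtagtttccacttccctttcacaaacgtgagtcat
Mx1: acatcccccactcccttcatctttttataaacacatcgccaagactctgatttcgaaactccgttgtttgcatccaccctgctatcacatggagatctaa
The search covered 300 bases, from 250 before to 50 after each start. The motif was in 4 of these 5 promoters, each time within the printed stretch, and in 1312 of 33469 promoters in the table (3.92%). Oas1a held 2 overlapping matches, from -41 to -32 and from -35 to -26 counted from the start site. The match began at -92 in Isg20, at -69 in Irf7 and at -44 in Ifit3. The 300 bases of Mx1 held no match. A match is a description of the sequence and does not show that a factor binds there.

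On all 12 arrays together, 42.7% to 55.9% of gene spots were flagged good, and normal protein replicate 3 was the dimmest array. The arrays lay on 3 slides, each with 2 high protein and 2 normal protein arrays. All 14 colon epithelium markers on the list were tested, with a mean log2 level of 11.69 to 12.53 on high protein and 12.03 to 12.45 on normal protein. Markers of other tissue were also well measured. The mean of 9 tested smooth muscle markers was 10.43 to 11.38 on high protein and 11.12 to 11.74 on normal protein. That of 8 fibroblast markers was 9.70 to 10.27 and 9.82 to 10.46. The label colonic epithelium is thus not taken to mean RNA of epithelial cells alone. Some arrays stood apart in colon position genes. Hoxb6, a homeobox gene of body position, was at 10.82 to 10.95 on high protein replicates 3 and 4 and normal protein replicate 6, and at 6.51 to 7.49 on the other 9 arrays. Hoxb13, another such gene, was at 11.996 to 12.56 on high protein replicates 1, 2, 5 and 6 and normal protein replicates 1 and 2. High protein replicates 3 and 4 were lower, at 6.12 and 7.485. Normal protein replicates 3 to 6 were also lower, at 8.26, 5.83, 9.32 and 6.18. Low Hoxb13 was thus more frequent on normal protein. The part of colon position in the diet differences was not tested. All levels below are normalized log2 intensities, differences are high protein minus normal protein, and levels of different genes come from different probes and are not compared.

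Both oligoadenylate synthetase genes had lower mean levels on high protein than on normal protein, and theirs were the largest differences among the tested members. Oas1a was at 6.08 to 7.54 (median 6.69) on high protein and at 6.91 to 7.96 (median 7.69) on normal protein. High protein replicate 2 was the highest of its diet and normal protein replicate 1 the lowest of its own, and through these arrays the diets overlapped. The difference was -0.89 ± 0.22 (SE, n = 6 each), a ratio of 0.541 on this scale. For Oas1k the levels were 6.35 to 7.57 (median 6.90) on high protein and 7.12 to 8.38 (median 7.90) on normal protein. The difference was -0.95 ± 0.23 (SE, n = 6 each). Normal protein replicate 1 lay inside the high protein range, and the other normal protein arrays lay above it. In this bulk tissue RNA, fewer cells of a type and less RNA per cell cannot be told apart. Both genes are dim, with a median signal minus background of 53.5 (Oas1a) and 67 (Oas1k) intensity units on high protein and of 148.5 and 176 on normal protein. The offset added before the log shrinks such differences. Taken from the deposited background-subtracted signal, with each array divided by its 75th percentile, they were -1.63 for Oas1a and -1.60 for Oas1k. Because Oas1a and Oas1k are close paralogs on chromosome 12, signal from the other gene in either probe was not tested.

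Ifi27l2b, on chromosome 6, was at 10.96 to 12.01 (median 11.60) on high protein and at 11.81 to 12.84 (median 12.29) on normal protein. The difference was -0.82 ± 0.20 (SE, n = 6 each). It was the brightly measured member, and high protein replicates 2 and 3 reached into the normal protein range. A second, dimmer probe of the same gene gave -0.99, and the deviations of the 2 probes from their diet means had a Pearson r of 0.81 over 12 arrays.

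Irf7, the transcription factor, differed by -0.82 ± 0.42 (SE, n = 6 each) and had the widest spread. Its levels were 7.49 to 8.87 (median 8.02) on high protein and 7.84 to 10.64 (median 8.63) on normal protein. The normal protein end of that range was replicate 6, with a signal minus background of 1320 units, against 92 to 680 on the other normal protein arrays. Without that array the Irf7 difference was -0.47. Isg15 had levels of 6.75 to 8.16 (median 6.96) on high protein and 7.16 to 8.75 (median 7.69) on normal protein. Its difference was -0.64 ± 0.30 (SE, n = 6 each), and -0.45 without normal protein replicate 6. Isg15 was flagged good on all 12 arrays but was dim. Its median signal minus background was 72 units on high protein and 169 on normal protein. With the deposited background-subtracted signal and 75th percentile scaling, the Isg15 difference was -1.02. High protein replicate 2, at 8.16, lay more than 1 log2 unit above the other high protein arrays, which did not exceed 7.13.

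Differences of the effectors Mx1 and Isg20 were smaller. Mx1 was at 7.38 to 8.28 (median 7.85) on high protein and 7.65 to 8.74 (median 8.46) on normal protein, a difference of -0.48 ± 0.20 (SE, n = 6 each). Isg20 was at 8.29 to 8.63 (median 8.43) on high protein and 8.32 to 8.98 (median 8.71) on normal protein, a difference of -0.27 ± 0.11 (SE, n = 6 each). In both genes normal protein replicate 3 was the lowest normal protein array and lay inside the high protein range.

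The tetratricopeptide-repeat genes showed little. Ifit2 was at 6.52 to 7.30 (median 6.66) on high protein and 6.25 to 7.58 (median 6.77) on normal protein, and the diets overlapped almost fully. Its difference was -0.09 ± 0.20 (SE, n = 6 each), and 0.07 without normal protein replicate 6. The Ifit2 spot was flagged good on 9 arrays, 4 of high protein and 5 of normal protein. Ifit3 was flagged good on 1 array, normal protein replicate 6, and on none of high protein. Its signal minus background was 5 to 30 units on high protein and 6 to 38 units on normal protein, which is not well above background, so no fold is given.

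**Figure D1:**
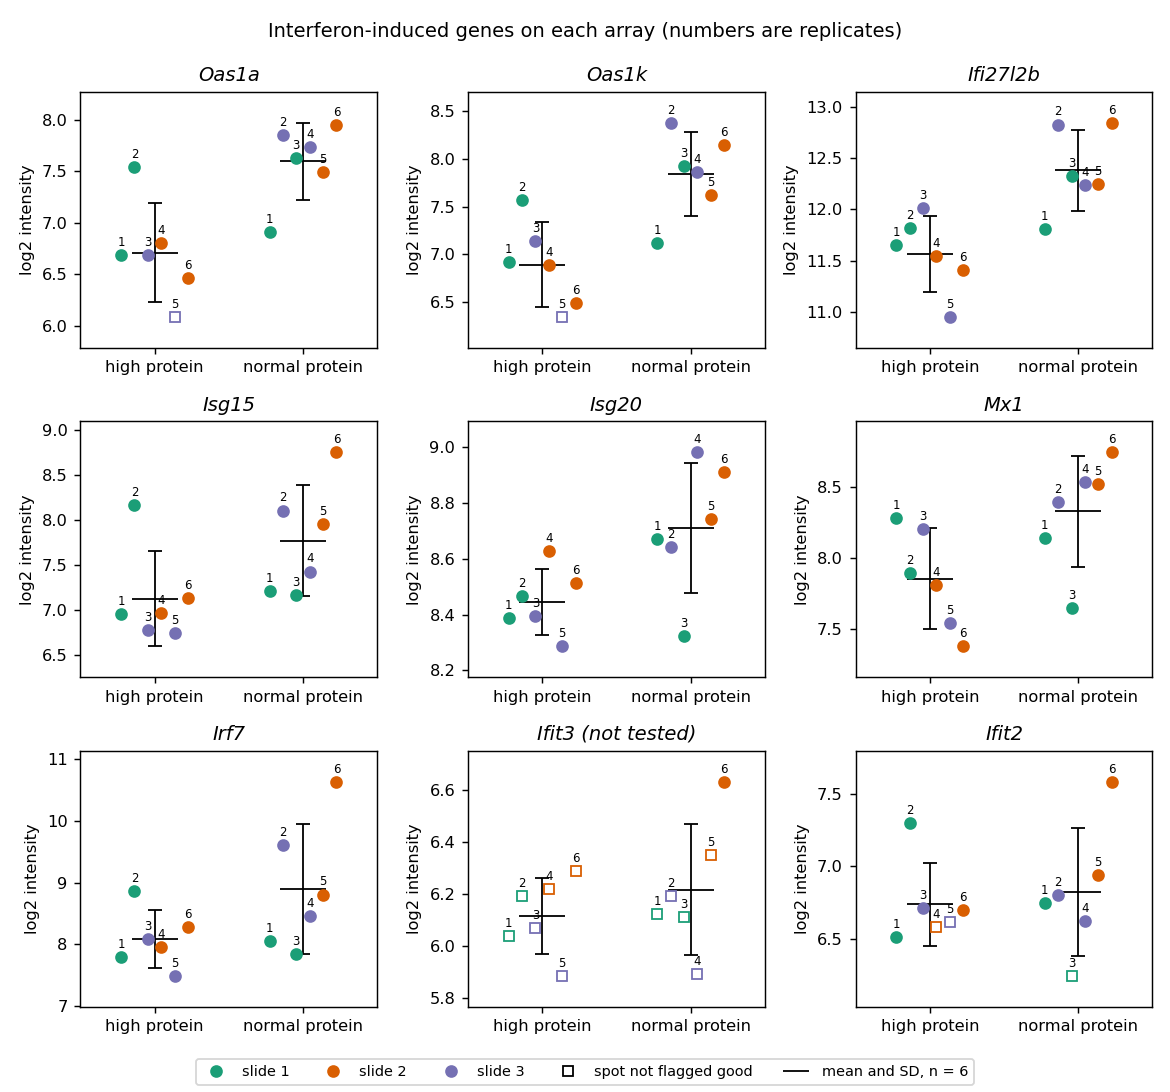
Normalized log2 intensity (vertical axis) of each of the 9 genes on the 6 high protein arrays (left in each panel) and the 6 normal protein arrays (right). Colours give the slide, numbers the replicate, open squares spots not flagged good, and bars the mean and SD (n = 6). The diets overlapped for every gene, and normal protein replicate 6 stood at 10.64 for Irf7.

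Since the members were picked with this contrast known, the diet differences are a description and carry no test. The difference lay below 0 for 8 of 8 tested members, against 48.5% of all tested genes. The median difference was -0.73 over the members and 0.01 over all genes. Every high protein array lay below the normal protein mean for 6 of 8 members, against 5.52% of all genes. No member had diets that did not overlap, against 0.0957% of all genes that were lower on high protein without overlap. Over all genes, limma with Benjamini-Hochberg adjustment called 0 of 10451 genes (0%), with a smallest adjusted p of 0.68. Without adjustment 694 genes had a p under 0.05, of which 383 were higher and 311 lower on high protein. The lower ones were 2.98% of all genes, and 6 of 8 members were among them, from which nothing is read because the members were selected on this contrast. Scaling arrays by their medians in place of quantile normalization moved the median difference of all genes to 0.10 and that split to 1128 higher and 78 lower, with 8 of 8 members below 0.

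The differences were not alike on the 3 slides. On slide 1 the median difference over the tested members was 0.06, on slide 2 it was -1.08 and on slide 3 it was -1.02. Slide 1 holds high protein replicate 2, the array with the highest level of its diet for 5 of 8 members, and normal protein replicates 1 and 3, which between them had the lowest level of their diet for all 8. On that slide Irf7, Isg15, Mx1 and Ifit2 had positive differences of 0.38, 0.37, 0.20 and 0.41. Oas1a, Oas1k, Ifi27l2b and Isg20 were below 0 within each slide, which is 4 of 8 members against 13.7% of all genes. For Oas1k the values were -0.28, -1.20 and -1.38 on slides 1, 2 and 3. For Oas1a they were -0.16, -1.09 and -1.41. Each slide compares 2 arrays with 2.

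Without normal protein replicate 6 the median difference over the tested members was -0.46, against -0.73 with it, and 7 of 8 were below 0. Oas1k was then at -0.89, Oas1a at -0.81 and Ifi27l2b at -0.72. Leaving out each array in turn gave medians of -0.86 (without high protein replicate 2) to -0.46.

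**Figure D2:**
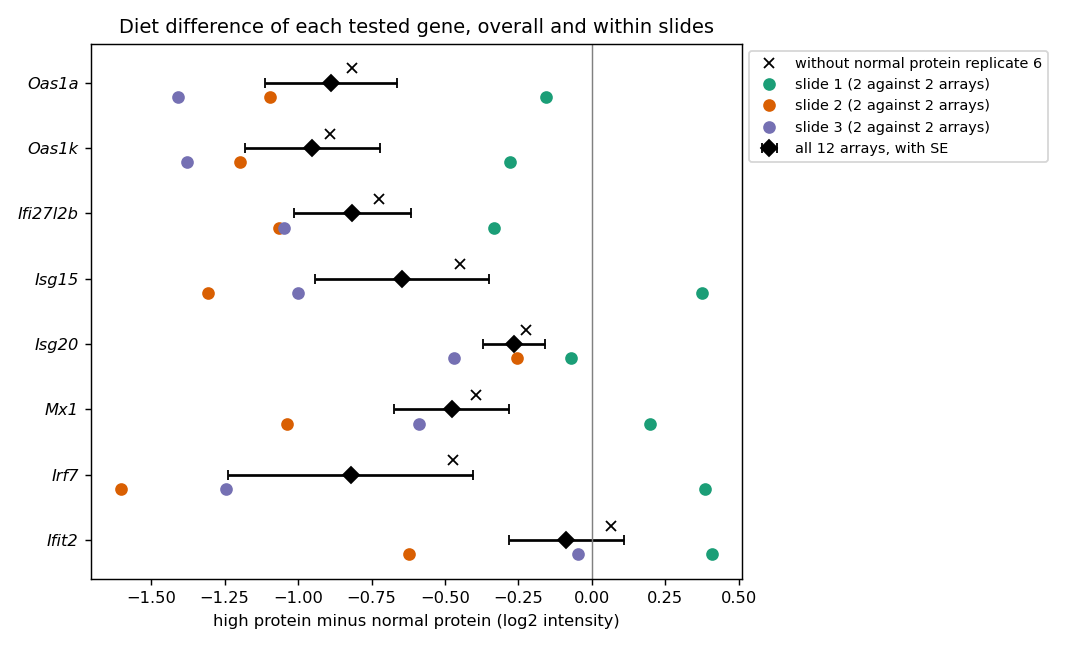
High protein minus normal protein difference in log2 intensity (horizontal axis) of the 8 tested genes. Diamonds with bars give all 12 arrays with the SE, coloured dots each slide (2 against 2 arrays) and crosses the value without normal protein replicate 6. On slide 1, Isg15, Mx1, Irf7 and Ifit2 lay above 0, and on slide 2 all 8 genes lay below 0.

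No cell type marker passed the adjusted limma threshold for diet, and several marker lists lay mostly on 1 side of 0, where 48.5% of all genes were below 0. The mean level of the 12 tested macrophage and dendritic cell markers of 14 was 8.71 to 9.22 on high protein and 9.06 to 9.50 on normal protein, and 11 of the 12 differences were below 0. Of the colon epithelium markers, 12 of 14 were below 0, with a difference of -0.34 in their mean. Differences below 0 were also found for 9 of 9 smooth muscle markers, 5 of 5 enteric neuron and glia markers and 3 of 4 B and plasma cell markers, whose mean differed by -0.37. The same held for 5 of 6 T and NK cell, 6 of 8 fibroblast and 4 of 6 endothelium markers, and for 1 of 4 plasmacytoid dendritic cell markers. Both tested neutrophil markers and 5 of 5 colon position genes were above 0, with differences of 0.33 and 0.82 in their means. The position mean gives no position, since Hoxb6 and Hoxb7 were high on high protein replicates 3 and 4 and normal protein replicate 6, where Hoxb13 was low. The differences were 1.55 ± 1.43 for Hoxb13, 0.85 ± 0.90 for Hoxb6 and 0.72 ± 0.89 for Hoxb7 (SE). They were 0.10 ± 0.60 for Hoxa13 and 0.90 ± 0.35 for Hoxd10 (SE). The 4 tested plasmacytoid dendritic cell markers, of 6, had means of 7.55 to 7.91 on high protein and 7.50 to 7.80 on normal protein, and the defining marker Siglech was never flagged good. The part of these cell types in the diet differences was not tested.

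Whether the genes moved as one was asked within diets, a measure apart from the diet contrast, although members and anchor were chosen with earlier results of these arrays known. Each array was taken as its deviation from the mean of its own diet. Normal protein replicate 6 was above its diet mean for 8 of 8 tested members, by 0.65 on average, and was the highest of its diet for 6. High protein replicate 2 was also above for 8 of 8, by 0.53 on average. High protein replicate 5 and normal protein replicate 1 were below for 8 of 8, with average deviations of -0.42 and -0.46. Members thus stood high or low together on some arrays of the same diet, and these arrays were of both diets. The other arrays were mixed.

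**Figure D3:**
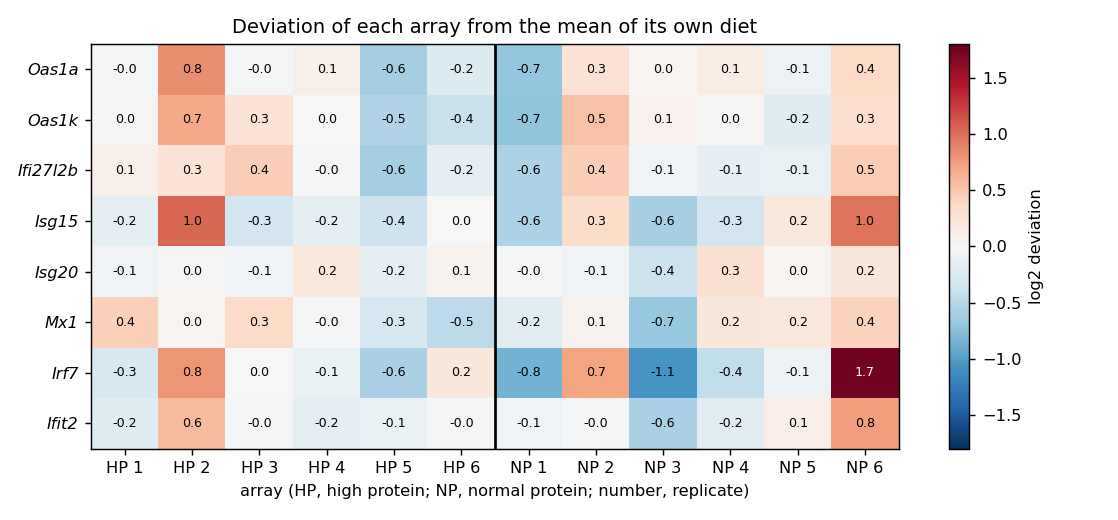
Log2 deviation (colour and printed value) of each array from the mean of its own diet, with the 8 tested genes as rows and arrays as columns, high protein (HP) left and normal protein (NP) right. High protein replicate 2 and normal protein replicate 6 are above 0 in all rows, and high protein replicate 5 and normal protein replicate 1 below 0 in all rows.

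All 28 pairs of tested members had a Pearson r above 0 between these deviations, from 0.10 (Oas1k with Isg20) to 0.93, with a median of 0.53. Over all pairs of the tested genes the median r was 0.00, with 5% of pairs below -0.59 and 5% above 0.60. The highest value was that of the paralogs Oas1a and Oas1k, with r = 0.93 and a Spearman rho of 0.89 (permutation p 9e-05 and 0.00079, two-sided, not adjusted for the 28 pairs), and r was 0.92 without the 2 farthest arrays. Oas1k and Ifi27l2b, on different chromosomes, had r = 0.89 and rho = 0.85 (permutation p 0.00059 and 0.00193), and r = 0.83 without the 2 farthest arrays. Isg15 and Ifit2 had r = 0.90 and rho = 0.76 (permutation p 0.00189 and 0.0141), which came to 0.63 without normal protein replicate 6 and high protein replicate 2. Isg20 had r of 0.10 to 0.28 with Oas1k, Ifi27l2b and Oas1a. The first principal component of the 8 genes held 63.5% of their variance within diets. All values of an array share its hybridization and its normalization.

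Irf7 was then used as the anchor, and each of the other 10450 genes was fitted on the Irf7 level with diet as a term in limma. A slope is the log2 change of a gene for each log2 unit of Irf7. Of all genes, 1 passed an adjusted limma p of 0.05 with a slope above 0 (0.00957%), a gene known here only as RGD1563091, with a slope of 0.61, r = 0.98 and an adjusted limma p of 0.00069. No other member passed. At an unadjusted limma p under 0.05 with a slope above 0 there were 5 of the 7 other members, against 4.87% of all genes. All 7 slopes were above 0, against 43.7% of all genes.

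Isg15 was nearest to the threshold, with a slope of 0.64 ± 0.088 (SE) and an adjusted limma p of 0.0502. That p ran from 0.0477 to 0.16 over the other processing settings, and from 0.0096 to 0.57 where arrays were left out. The deviations of Isg15 and Irf7 had r = 0.92 and rho = 0.91 over 12 arrays (permutation p 3e-05 and 4e-04, two-sided), r was 0.90 without normal protein replicates 6 and 2, the farthest arrays in Irf7, and only 2 of the 10450 genes had a higher r with Irf7. For Ifit2 the slope was 0.40 (adjusted limma p 0.158), with r = 0.87 and rho = 0.83 (permutation p 0.0015 and 0.00302), and r = 0.85 without the same arrays. Thus the gene with the smallest diet difference had the next highest likeness to Irf7 among the members. The Ifit2 spot was dim, at 12 to 120 units over background on normal protein.

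Ifi27l2b, Oas1a and Oas1k were less like Irf7 than they were like each other. Ifi27l2b had a slope of 0.33 (adjusted limma p 0.33), r = 0.72 and rho = 0.68 (permutation p 0.012 and 0.0242), but r = 0.48 without normal protein replicates 6 and 2. Oas1a had r = 0.64 and rho = 0.57 (permutation p 0.0142 and 0.0718), and r = 0.67 without these arrays. Oas1k had r = 0.61 and rho = 0.60 (permutation p 0.0397 and 0.0515), and r = 0.52 without them. Their adjusted limma p-values were 0.39 and 0.41. The difference between these correlations was not tested.

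Mx1 and Isg20 had the lowest r with Irf7 among the 7 genes. Mx1 had r = 0.51 and rho = 0.41 (permutation p 0.123 and 0.196), and Isg20 had r = 0.49 and rho = 0.39 (permutation p 0.22 and 0.264). Their adjusted limma p-values were 0.56 and 0.64, and r without the 2 farthest arrays was 0.35 for Mx1 and 0.52 for Isg20. With slide removed as well as diet, r with Irf7 was 0.94 for Isg15, 0.87 for Ifit2, 0.75 for Ifi27l2b, 0.75 for Oas1k, 0.72 for Oas1a, 0.52 for Mx1 and 0.33 for Isg20. These 7 relations were adjusted together with all other genes in the limma fit, and the permutation p-values are not adjusted.

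**Figure D4:**
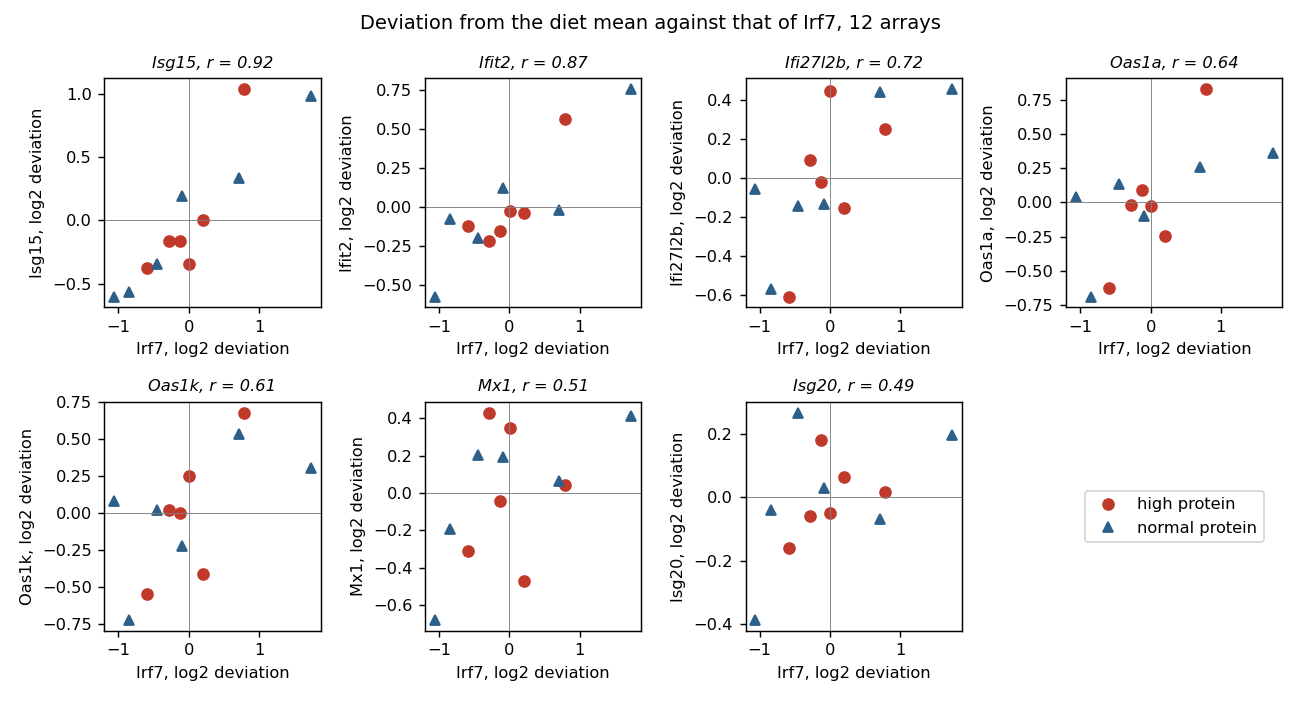
Log2 deviation from the diet mean of each of the 7 other tested genes (vertical axes) against that of Irf7 (horizontal axes), 12 arrays, high protein as circles and normal protein as triangles. Pearson r ran from 0.92 for Isg15 to 0.49 for Isg20, and the rightmost triangle is normal protein replicate 6.

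How much of this rested on normal protein replicate 6 was measured by leaving it out. No gene then passed an adjusted limma p of 0.05 in the Irf7 fit. At an unadjusted p under 0.05 with a slope above 0 there were still 5 of 7 members, against 1.83% of all genes. Without normal protein replicates 6 and 2 there were 3 of 7, against 1.02%. Normal protein replicate 6 also had the highest mean of the endothelium markers, 8.93 against 7.84 to 8.30 on the other 11 arrays, and of the enteric neuron and glia markers, 8.23 against 7.08 to 7.74. Of the endothelium list 6 of 8 markers were tested, with means of 7.91 to 8.30 on high protein and 7.84 to 8.93 on normal protein, and Cdh5 and Tek were never flagged good. The endothelium mean had r = 0.64 with Irf7 over all arrays and -0.23 without that array. The fibroblast mean had r = -0.66 with Irf7 (-0.50 without that array), and the B and plasma cell mean had r = -0.63 (-0.28 without it). Of the enteric neuron and glia list 5 of 7 were tested, with means of 7.08 to 7.74 on high protein and 7.18 to 8.23 on normal protein. The spread of that list on normal protein lay mostly in S100b, with an SD of 1.85. Sox10, Elavl4, Uchl1 and Tubb3 had SDs of 0.14 to 0.26 there. On normal protein replicate 6, the macrophage and dendritic cell mean was 9.15 and the T and NK cell mean 7.45. Both lay inside the ranges of the other arrays. The B and plasma cell mean of that array, 6.67, was the lowest of all. The part of these cells in the Irf7 relations was not tested. With that array left out, r with Irf7 was 0.88 for Isg15 and 0.74 for Ifit2.

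By the rule for genes most like Irf7, the 15 with a symbol and the smallest p were taken, and none passed the adjusted limma threshold. Several are known interferon-induced genes. Oasl2, an oligoadenylate synthetase-like gene, had r = 0.91 and an adjusted limma p of 0.059. Herc6, the ligase that attaches Isg15 in mouse, had r = 0.92 and an adjusted limma p of 0.069. Psmb8, a catalytic subunit of the immunoproteasome, had r = 0.90 and an adjusted limma p of 0.088. The remaining 12 each had an adjusted limma p of 0.158. They included Ubd, a ubiquitin-like modifier (r = 0.85), Rtp4 (0.85), the Isg15-conjugating enzyme Ube2l6 (0.85), Stat2 of the interferon receptor pathway (0.87), Rsad2, the antiviral enzyme viperin (0.82), and Samd9l (0.84). Echdc1 (0.86), the histone chaperone Nap1l1 (0.87), the haemoglobin gene Hba-a1 (0.82), Clic5 (0.85), the endothelial and myeloid receptor Cd93 (0.83) and the carboxylesterase Ces1d (0.81) completed the 15.

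The diet differences of these neighbours of Irf7 are given as a description. They are not compared with those of the members, which were selected on the diet contrast. Oasl2 was at 6.70 to 8.09 (median 7.43) on high protein and 7.02 to 8.28 (median 7.41) on normal protein, a difference of -0.16. The differences were -0.12 for Herc6, -0.27 for Rtp4, -0.10 for Ube2l6, -0.04 for Stat2, -0.34 for Rsad2 and -0.27 for Samd9l. Psmb8 had 0.00 and Ubd had 0.57. Rsad2 was dim and flagged good on 6 arrays. It was at 8.05 on normal protein replicate 6 and did not exceed 6.93 on any other array. Ubd was at 10.40 on high protein replicate 2 and 9.41 on normal protein replicate 6, and no other array exceeded 8.19. Both arrays were also the highest of their diet for Irf7.

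The rest of the interferon pathway was described with lists of 120 genes, of which 105 were on the array by name and 64 were tested. None of the 64 passed an adjusted limma p of 0.05 for diet or in the Irf7 fit. At an unadjusted limma p under 0.05 in the Irf7 fit, 25 had a slope above 0 (39.1%, against 4.87% of all genes) and 1 below 0. For diet, 2 were lower and 1 was higher at that level. Their median diet difference was -0.04, with 36 of 64 below 0. The members' median of -0.73 is not compared with it, because the members were selected on this contrast.

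Of the interferon genes themselves, none of the 7 on the array, Ifnb1 and Ifng among them, was flagged good on any array. Of the receptors, Ifngr1, Ifngr2 and Il10rb were tested and none had a slope above 0. Ifnar1, a chain of the type I receptor, was flagged good on 3 arrays, and Ifnlr1, the specific chain of the type III receptor, on none. Of the genes of signalling to the nucleus, Stat2 had an unadjusted p under 0.05, with a slope of 0.28 (adjusted limma p 0.158). Stat2 was at 8.95 to 9.73 (median 9.24) on high protein and 9.04 to 9.79 (median 9.25) on normal protein, and high protein replicate 2 and normal protein replicate 6 were the highest arrays of their diets. None of the 6 tested nucleic acid sensing genes, such as Tlr3 and Mavs, had an unadjusted p under 0.05 in the Irf7 fit.

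The enzymes that attach Isg15 to other proteins had a median r with Irf7 of 0.85. All 3 tested, Uba7 (activating enzyme), Ube2l6 (conjugating enzyme) and Herc6 (ligase), had an unadjusted limma p under 0.05, with slopes of 0.33, 0.35 and 0.39 (adjusted limma p 0.21, 0.158 and 0.069). Their diet differences were 0.04, -0.10 and -0.12. That of Isg15 was -0.64, but Isg15 was selected on this contrast. Usp18, which removes Isg15, was flagged good on 2 arrays and was not tested.

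Of the other antiviral effectors, 13 of 26 tested had an unadjusted p under 0.05 and a slope above 0, and 20 of 26 had diet differences below 0, with a median of -0.16. Ifi27, a relative of Ifi27l2b, had a slope of 0.69 (adjusted limma p 0.158) and a diet difference of -0.61 ± 0.36 (SE). It averaged 11.45 ± 0.44 on high protein and 12.06 ± 0.88 on normal protein (SD, n = 6 each). Oas1b, a further member of the oligoadenylate synthetase family, differed by 0.01 between diets and had a slope of -0.01. Mx2, the relative of Mx1, differed by -0.26 and had a slope of 0.06. Oas1b and Mx2 were chosen after their values were seen.

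Of 17 tested genes known mainly for their response to interferon gamma, 7 had an unadjusted p under 0.05 and a slope above 0. Their median diet difference was 0.11, with 12 of 17 above 0, against 5380 of all 10451 genes. Gbp2, a guanylate-binding protein, had a slope of 0.44 (adjusted limma p 0.27) and a diet difference of 0.21. Irgm, an immunity-related GTPase, had a slope of 0.32 and a diet difference of 0.18. Tap2, a peptide transporter for antigen presentation, had a slope of 0.27 and a diet difference of 0.05. Psme2, a proteasome activator subunit, had a diet difference of -0.14. The difference between the lists was not tested. Of the feedback inhibitors, 2 of 8 were tested, and Ptpn6, a phosphatase that damps JAK signalling, had the single negative slope among the lists at an unadjusted p under 0.05.

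**Figure D5:**
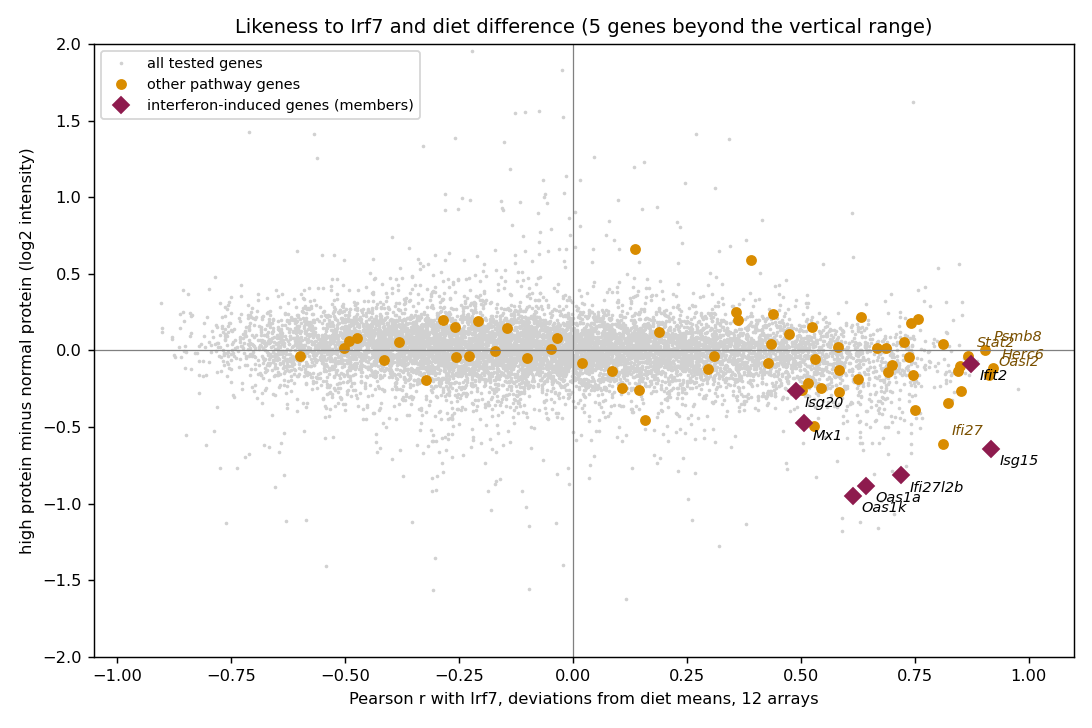
Pearson r with Irf7 of within-diet deviations (horizontal axis) against the diet difference in log2 intensity, high protein minus normal protein (vertical axis), for all tested genes (grey), the 64 other pathway genes (orange) and the 7 other tested members (diamonds); 5 genes lie beyond the vertical range. Among pathway genes at high r, Psmb8 and Stat2 lie near 0 in the diet difference and Ifi27 at -0.61. Oas1k, Oas1a and Ifi27l2b lie at -0.95 to -0.82, and as members they were selected on this contrast.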

How the data were processed

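Total RNA was labelled with Cy3 and hybridized to Agilent whole rat genome arrays, per the labels' protocols. Per the file headers, the deposited intensity values were scanned at 532 nm with gain 600, measured with GenePix Pro 6.1.0.4 and not normalized. Deposited flags are a score of 100 for good spots. The series value table holds log2 values deposited by the authors, and the submitters' processing notes name RMA. Its values followed the scanner files with IDs moved by 1 row (r 0.929 to 0.963, against 0.0968 to 0.113 as given), so it served as an alternative in that form.

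Spot mean and local background of all spots were corrected with normexp (offset 50) in limma 3.58.1 (R 4.3.3). Control spots were then left out, and the gene spots were put on the log2 scale and quantile normalized. Probes flagged good on at least 6 of 12 arrays were kept (13204 of 30367), with the brightest per gene, which gave 10451 genes. RefSeq accessions named 18355 of 22031 probes with one. lmFit and eBayes were run for diet and for the Irf7 level with diet, adjusted over all genes with a threshold of 0.05, and were tested on simulated data. Permutations (100000) ran within diets. The number of arrays limits the precision.

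Members, lists and the anchor were chosen with earlier results of these data known. Named were all members, the 15 genes with a symbol nearest to Irf7, and up to 4 genes of each pathway list. Other names were chosen after their values were seen. Replicate numbers were not taken to pair the arrays, since nothing in the labels says so and same-numbered deviations had r of -0.11 to 0.40, with 3 of 6 numbers closest to their own. Alternatives were the background correction, scaling, offset, flag filter, probe choice, slide and replicate blocks, value table, single slides, left-out arrays and other anchor genes. Some genes of the lists are not reported here.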

Additional observations from a re-analysis of the deposited data

Results flagged for a closer look

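In high protein arrays, Isg15 and Ifit2 each had 1 array far from the others, high protein replicate 2. For Isg15 it stood at 8.16, and its gap to the nearest array took up 0.73 of the range of the group. For Ifit2 it stood at 7.30, with a gap of 0.748 of the range. Both exceed Dixon's critical value for 6 samples. Among 9 genes in 2 diets no other group did, and chance marks about 1 group in 20. The 2 marks are not independent, since they fell on the same array and Isg15 and Ifit2 had r = 0.90 within diets. Normal protein replicate 6 was not marked for any gene, although it was the highest of its diet for 6 of 8 tested members.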

How the results depend on the processing

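No member's diet difference or slope changed sign under the other scalings, filters, blocks or the value table, and 8 of 8 members were below 0 for diet under each scaling. Genes passing the Irf7 fit, 1 as reported, numbered 2 with the background-subtracted signal as deposited (75th percentile scaling), 4 with offset 16, 0 with good flags on all 12 arrays, 2 with the mean of all probes, 2 with slide as a block, 174 with a replicate block and 3 with the value table. They numbered 0 with Isg15, Mx1 or Oas1k as the anchor (Oas1k was added after seeing the data), 0 without the 2 arrays farthest in Irf7, and 0 to 3 with each array left out. The replicate block called 0 genes for diet and moved the Mx1 slope to 0.72 (adjusted limma p 0.0573), against 0.23 without it. Other members passing, 0 as reported, came to 1 (Isg15) with that same signal, offset 16, the mean of all probes and the value table, and to 0 to 1 with each array left out. Isg15 passed without high protein replicate 2 or 3, with adjusted limma p of 0.0096 and 0.022. For diet, 1 gene passed within slide 3, and the members' median was 0.0644 within slide 1 and -0.86 to -0.46 with each array left out, where 0 to 0 genes passed. The unadjusted diet split of 383 higher and 311 lower became 1128 and 78 with median scaling and 318 and 481 with 75th percentile scaling, where the median over all genes was -0.03. The value table gave -1.85 for Oas1a and -1.62 for Oas1k. The cause of these changes was not tested. Dim spots limit Oas1a, Oas1k, Isg15, Ifit2 and Ifit3, and Ifit3 could not serve as an anchor because it was not tested.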
